A study of Mus musculus with 4 samples.

Results

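Tenocytes were chosen by their own UMI counts of 8 genes of tendon matrix and tendon surface, namely Fmod, Chad, Kera, Cilp2, Tnmd, Comp, Thbs4 and Angptl7. A barcode was counted as a tenocyte when it carried at least 1 UMI (unique molecular identifier, 1 counted RNA molecule) of 4 or more of these genes and when their UMIs together made up at least 0.1% of its UMIs. This gave 2752 tenocytes among 18153 kept barcodes, those with over 200 genes detected and under 10% mitochondrial UMIs. Since the 8 genes chose the cells, their levels below are descriptions only.

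The cells came from 2 hindlimb muscles, gastrocnemius and tibialis anterior, of 2-month-old males, and each genotype was a pool of 4 mice. All mice carried the S100GFP-tg reporter, in which the S100B promoter drives GFP, and the labels name no treatment. The WT pool carried the reporter alone, and the Sod1KO pool carried it with loss of both copies of Sod1 (Sod1-/-), and the strain background was not analysed here. Live cells of each pool were sorted into GFP+ and GFP- fractions, and each fraction gave 1 single-cell library made with the 10x Genomics 3′ chemistry. With 1 library per group there was no replicate and no test was possible. Intervals are 95% intervals that cover counting error only, and a difference between libraries may be one between pools, sorts or preparations.

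Tendon joins muscle to bone and is built mostly of type I collagen fibrils, which tenocytes secrete, assemble and maintain under load. Their identity is tied to the transcription factors scleraxis (Scx) and Mohawk (Mkx) and to tenomodulin (Tnmd), a membrane protein typical of mature tenocytes. A sheath of flatter cells surrounds the tendon and secretes lubricants such as lubricin (Prg4) and hyaluronan. Where muscle fibres end on tendon, at the myotendinous junction, the matrix holds collagen XXII, the product of Col22a1.

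Promoter sequences are shown for 4 of the 8 genes that chose the cells, picked for their levels in the subgroups of tenocytes described below. Thbs4 was higher in the Col22a1-high subgroup, Fmod and Chad were lower there, and Tnmd was close to level. Angptl7 and Comp were lower there too, and their promoters are not shown. Each sequence shown runs from 250 bases before to 50 bases after the annotated start in RefSeq on GRCm38.p6, 5′ to 3′ on the strand of the gene. They lie at chr13:92794769-92795068 (Thbs4, minus strand), chr1:134037004-134037303 (Fmod, plus strand), chr11:94564797-94565096 (Chad, plus strand) and chrX:133850758-133851057 (Tnmd, plus strand). Capitals mark the E-box CANNTG, the motif class bound by basic helix-loop-helix factors such as scleraxis.
Thbs4: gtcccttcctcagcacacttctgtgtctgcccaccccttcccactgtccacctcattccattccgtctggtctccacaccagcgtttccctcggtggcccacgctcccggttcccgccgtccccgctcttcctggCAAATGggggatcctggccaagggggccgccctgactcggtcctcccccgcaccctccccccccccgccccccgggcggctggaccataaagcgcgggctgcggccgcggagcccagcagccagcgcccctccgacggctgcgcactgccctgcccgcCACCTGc
Fmod: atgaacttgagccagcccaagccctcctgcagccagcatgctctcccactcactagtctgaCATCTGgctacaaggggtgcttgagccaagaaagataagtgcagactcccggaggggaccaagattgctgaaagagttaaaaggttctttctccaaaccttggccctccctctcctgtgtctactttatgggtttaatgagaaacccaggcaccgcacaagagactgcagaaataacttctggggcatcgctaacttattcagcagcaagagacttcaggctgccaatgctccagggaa
Chad: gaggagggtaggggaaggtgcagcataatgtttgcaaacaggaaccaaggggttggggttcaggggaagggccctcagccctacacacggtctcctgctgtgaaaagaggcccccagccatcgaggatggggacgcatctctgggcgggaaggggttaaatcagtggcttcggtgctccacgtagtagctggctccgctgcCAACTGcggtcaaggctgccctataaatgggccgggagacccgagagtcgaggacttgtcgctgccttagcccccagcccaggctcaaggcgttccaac
Tnmd: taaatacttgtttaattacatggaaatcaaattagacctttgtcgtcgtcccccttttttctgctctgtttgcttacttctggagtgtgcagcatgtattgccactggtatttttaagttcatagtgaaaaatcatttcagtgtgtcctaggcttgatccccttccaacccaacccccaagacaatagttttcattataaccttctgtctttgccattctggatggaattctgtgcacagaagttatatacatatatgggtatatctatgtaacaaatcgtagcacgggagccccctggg
The E-box, searched on both strands, was present in 5 of the 7 promoters found for the 8 genes (Angptl7, Chad, Cilp2, Fmod and Thbs4), and in 72.3% of all 32851 promoters of the same length. TATAAA was present in 1 of the 7, that of Chad, against 13.6% of all promoters. The SMAD palindrome GTCTAGAC was in 0 of the 7, against 0.213% of all. These matches are a description of the letters in these windows. For Comp, Scx, Mkx, Col22a1 and Prg4, no sequence is shown.

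The 4 libraries held 2052 to 7267 barcodes and 21959719 to 105954116 UMIs in all, with the fewest of both in WT GFP-. Tenocytes were deeply sequenced in 3 libraries, with a median UMI number of 29877 (WT) and 22845 (Sod1KO) in GFP+ and of 25141.5 in Sod1KO GFP-, whereas WT GFP- had 7402.5. Between 0 and 10 cell barcodes were shared by a pair of libraries among kept barcodes, and 0 among tenocytes. The WT GFP- library stood apart in what its tenocytes carried. At least 4 of 8 endothelial markers were detected in 100 of its 124 tenocytes (80.6%), against 14 of 673 (WT GFP+), 25 of 1493 (Sod1KO GFP+) and 45 of 462 (Sod1KO GFP-). The summed level of the 8 endothelial markers in tenocytes was 1907 UMIs per 1000000 (CPM) in WT GFP- and 75.4 to 365 CPM in the other libraries, and no marker was at 0 in any of them. Erythroid markers followed the same order, at 24366 (WT) and 2346 CPM (Sod1KO) in GFP- but 18.3 (WT) and 302 CPM (Sod1KO) in GFP+. Of the WT GFP- tenocytes, 1 of 124 had been marked as a doublet by simulated doublets, against 49 and 151 in GFP+ of WT and Sod1KO and 46 in Sod1KO GFP-. The number to mark was set by the size of each library, so only 27 kept barcodes were marked in WT GFP-. It was 210 in WT GFP+, 366 in Sod1KO GFP+ and 287 in Sod1KO GFP-. Whether the WT GFP- tenocytes with other markers were doublets was not tested. A second, smaller set was therefore followed beside all tenocytes, chosen after these values were seen. Its cells, called tendon-only tenocytes, carried at most 2 markers of each of 8 other cell types. The 8 types were endothelial, mural, Schwann, perineurial, macrophage, erythroid, satellite and myofibre cells. Fibroblasts and fibro-adipogenic progenitors were not among them. This smaller set kept 557 (WT) and 1248 (Sod1KO) GFP+ tenocytes, but 15 (WT) and 352 (Sod1KO) GFP- ones. Values for tendon-only tenocytes of WT GFP- thus rest on 15 cells, with a median of 35032 UMIs against 7402.5 in all its tenocytes. In the other libraries the tendon-only median was slightly below that of all tenocytes. It was 28772 (WT) and 21891 (Sod1KO) in GFP+ and 23531 in Sod1KO GFP-.

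The targeted gene was not lower where the labels say that it was deleted. Sod1, the cytosolic copper-zinc superoxide dismutase, was at 80.4 CPM (WT) and 108 CPM (labelled Sod1KO) in GFP+ tenocytes, and at 101 and 111 CPM in GFP- tenocytes. It was thus higher, not lower, in both libraries labelled Sod1KO, with a GFP+ log2 ratio of 0.42 (0.34 to 0.50). At least 1 Sod1 UMI was found in 84.1% (WT) and 86.6% (Sod1KO) of GFP+ tenocytes. In other cells of the same GFP+ libraries the ratio lay between -0.14 in endothelial cells and 0.07 in Pi16 fibroblasts. The 3′ tags of this method may lie outside the deleted part of the gene, and the design of the allele was not analysed here, so this gene cannot check the labels. Every direction between genotypes below rests on the labels alone.

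Tenocytes made up a larger share of the GFP+ libraries than of the GFP- libraries. Among GFP+ barcodes they were 14.1% (13.1 to 15.1) for WT and 23.7% (22.7 to 24.8) for Sod1KO. Among GFP- barcodes they were 7.45% (6.23 to 8.82) and 8.51% (7.78 to 9.28). The sort difference was 6.67 percentage points (5.00 to 8.22) in WT and 15.2 points (13.9 to 16.5) in Sod1KO, beyond counting error in both. Between genotypes, the GFP+ share was 9.61 points higher in the library labelled Sod1KO (8.16 to 11.05), while the GFP- share was 1.06 points higher (-0.48 to 2.46), an interval that holds 0. After each cell had been thinned to 2000 UMIs the GFP- difference was 2.35 points (0.83 to 3.72), an interval without 0. For tendon-only tenocytes the shares were 11.7% (WT) and 19.8% (Sod1KO) of GFP+ barcodes and 0.901% and 6.48% of GFP- barcodes. Sorting set these denominators, and among stromal cells alone (tenocytes, fibroblasts and perineurial cells) tenocytes were 44.0% and 54.7% in GFP+ and 49.2% and 32.7% in GFP-, WT first. On that denominator the WT sort difference was -5.19 points and so changed sign, and the GFP- genotype difference was -16.5 points.

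**Figure D1:**
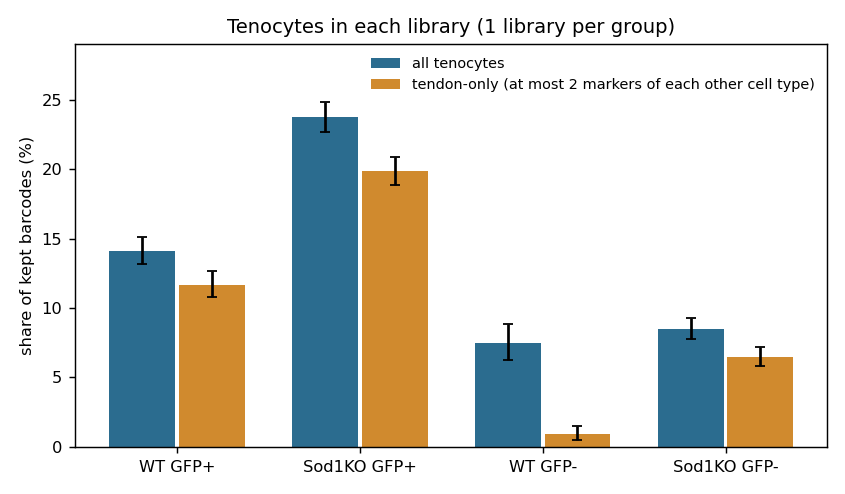
Share of kept barcodes (percent, vertical axis) that met the rule for tenocytes in each of the 4 libraries, in blue for all tenocytes and in orange for tendon-only tenocytes; error bars are exact 95% binomial intervals for counting error only. The highest bars belong to Sod1KO GFP+ (23.7% and 19.8%), and the orange bar of WT GFP- drops to 0.901%.

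The limits of the rule cut through few cells. Of the 2752 tenocytes, 2140 carried all 8 genes, 527 carried 5 to 7 and 85 carried 4. Those 85 held a median of 0.608% of their UMIs in the 8 genes, while 71 barcodes just outside, with 3 of the genes and at least 0.1%, held 0.193%. A further 99 barcodes had 4 or more of the genes but less than 0.1%, with a median of 0.0298%. All 8 genes were seen in 79.9% (WT) and 78.0% (Sod1KO) of GFP+ tenocytes and in 83.1% of those of Sod1KO GFP-, but in 43.5% of those of WT GFP-. Tenocytes held 95.6% to 99.0% of all UMIs of the 8 genes among kept barcodes of a library.

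Levels of most of the 8 genes were close across libraries once cells with markers of other types had been set aside. Fmod, the fibromodulin that regulates collagen fibril assembly, was at 9357 (WT) and 8865 CPM (Sod1KO) in GFP+ tendon-only tenocytes and at 8849 and 9392 CPM in GFP- ones. Tnmd was at 2475, 2250, 2407 and 2407 CPM in this order of libraries, which is kept below wherever 4 values follow each other. Thbs4, a matricellular thrombospondin, was at 5011, 4544, 4758 and 4171 CPM. These 3 genes differed little between libraries. Chad, chondroadherin, was lower in WT GFP- at 1467 CPM than in the other libraries at 3283, 3046 and 2682 CPM. Angptl7, a secreted angiopoietin-like protein, stood at 3499 and 3559 CPM in the WT libraries, against 2367 and 2390 in the libraries labelled Sod1KO, but the WT GFP- value rests on 15 cells. In all tenocytes it was at 3103, 2053, 1927 and 2284 CPM, where WT GFP- was the lowest. Kera (keratocan), Cilp2 and Comp (cartilage oligomeric matrix protein) lay between 1057 and 1789 CPM in every library. These are 3′ tag counts without scaling by length, so levels compare libraries, not genes.

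Genes that the rule did not use were checked against the name tenocyte. Scx was at 580, 701, 517 and 629 CPM in tendon-only tenocytes, against 0.70 to 1.45 CPM in endothelial cells of the GFP+ libraries. Mkx was at 235, 232, 238 and 265 CPM. Col1a1, which encodes the main chain of type I collagen, was at 53067, 46091, 75481 and 45483 CPM. All 3 genes were thus present in every library. With each cell thinned to 2000 UMIs, Scx was detected in 60.0% (WT) and 63.0% (Sod1KO) of GFP+ tendon-only tenocytes, against 0.4% of endothelial cells in each. Without thinning the shares were 95.7% and 94.95%, against 1.20% and 2.40% of endothelial cells, whose median depth was 14119 and 13419.5 UMIs.

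No cells here could be named tendon sheath cells from their markers. The rule asked for tendon genes, Tnmd and Angptl7 among them, so sheath cells with few of these would not be among the cells described. Prg4 was high, at 2659, 2180, 1546 and 1938 CPM in tendon-only tenocytes. Tppp3, a marker of sheath cells, was at 30.9, 23.7, 34.9 and 46.3 CPM in tendon-only tenocytes and at 247 to 504 CPM in Pi16 fibroblasts. It was thus lower in tenocytes than in these fibroblasts in every library. No subgroup held 3 sheath markers above 20 CPM and 2-fold over the rest without as many markers of another type. The cells are therefore called tenocytes.

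Tenocytes were also set beside the most similar cells of the same libraries, gene by gene. Comparison cells were Pi16 fibroblasts (944 cells), other Pdgfra fibroblasts (1435 cells) and perineurial cells (793 cells). The rule set tenocytes apart from these classes, so the values are a description. Genes are given that were 2-fold or more higher than in all 3 classes in all 4 libraries. There were 118 such genes among 2330 at 50 CPM or more in tendon-only tenocytes (5.06%), and 71 among 2320 when all tenocytes were used (3.06%). Outside the rule, Col11a2, a chain of the fibril-nucleating collagen XI, had a smallest log2 ratio of 5.74, and Wif1, a secreted inhibitor of Wnt, one of 5.64. Scx was at 4.58, Ecrg4 at 4.02, Col11a1 at 3.90 and Sema3a, a secreted axon repellent, at 3.87. Bmpr1b, a BMP receptor, was at 3.50 and Mkx at 3.46. The values of Wif1, Scx and Mkx come from WT GFP-, where 15 tenocytes were set beside 10 perineurial cells. With so few cells the floor of 3 UMIs may set these 3 values. Col1a1 and Col1a2 reached 3.06 and 2.99. The 8 genes of the rule had smallest ratios from 3.14 (Comp) to 6.53 (Tnmd).

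**Figure D2:**
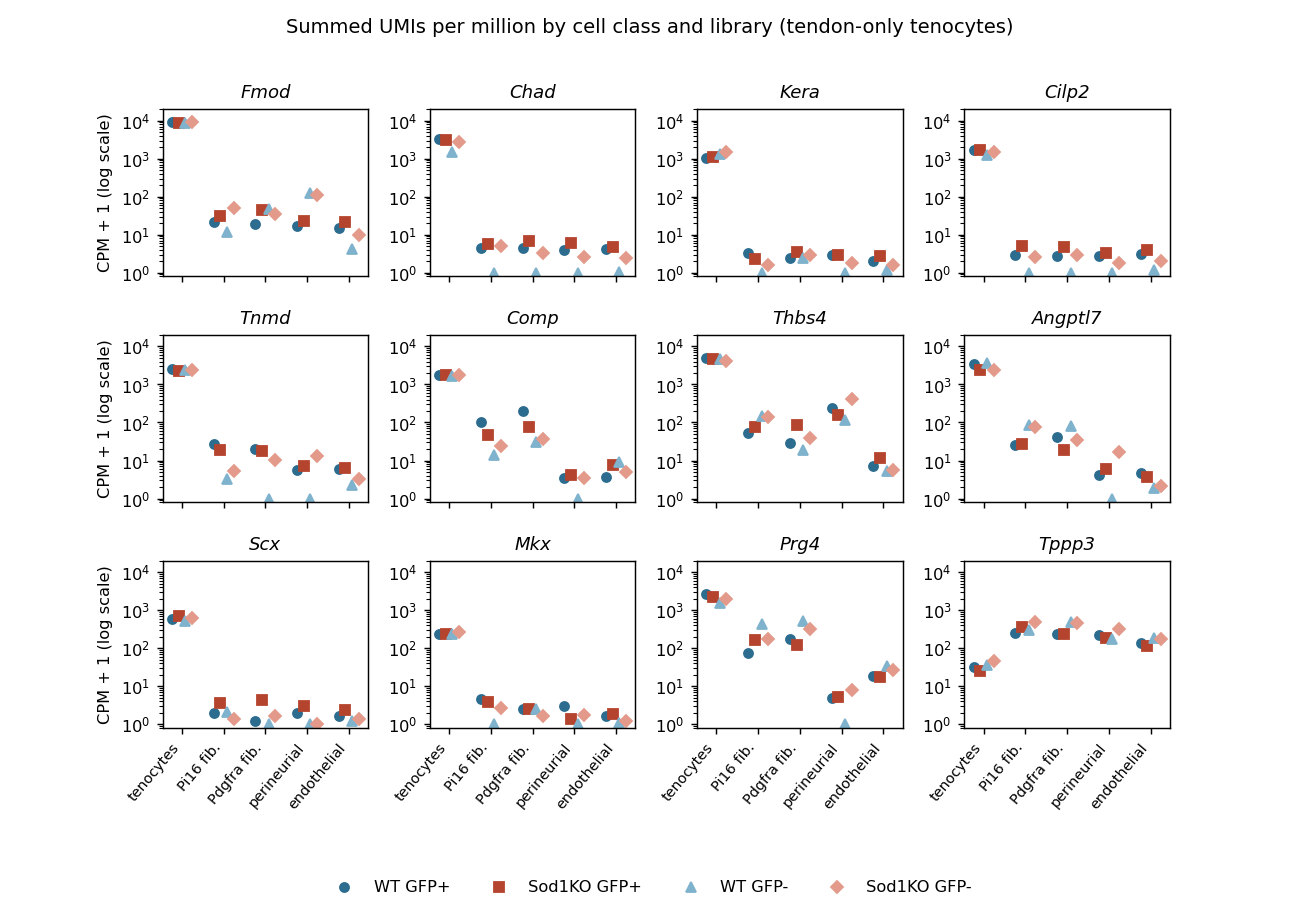
CPM plus 1 (logarithmic vertical axis) of 12 genes in tendon-only tenocytes, Pi16 fibroblasts, other Pdgfra fibroblasts, perineurial cells and endothelial cells, with 1 point per library. The 8 genes of the rule, Scx and Mkx are above every other class in each library, Prg4 is highest in tenocytes, and Tppp3 is lowest in them.

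Clustering of the tenocytes alone gave 11 subgroups. The 2131 genes past 2-fold between genotypes in either sort had been left out, and a cluster's own genes are described without a test. Subgroups 1, 2 and 3 were the bulk, with 753, 543 and 517 cells, with Fmod at 10471, 9924 and 10936 CPM and Tnmd at 2397, 2339 and 2694 CPM in them. Subgroup 1 was led by Il1rapl1, Cyp26a1 (which degrades retinoic acid), Mt3, Bmpr1b, Matn3 and Wif1, with log2 ratios of at most 1.38 over the other tenocytes. Subgroup 2 was led by Rrad, Nfatc2, Rcan1, Slc7a11, Pde4b, Errfi1 and Zfp36, and had more of the immediate early genes Fos (5161 CPM, against 2543 and 2612 in subgroups 1 and 3) and Egr1 (2441 against 1069 and 990). Its metallothionein Mt1 was at 2640 CPM against 770.5 and 1142. Subgroup 3 was led by Gpha2, a glycoprotein hormone subunit, the protease inhibitor Slpi, and Lcn2, Cpz and Dbp. Other settings gave 7 to 13 subgroups, and at resolution 0.3 the grouping shared little with this one (adjusted Rand index 0.39), so the borders between subgroups 1, 2 and 3 are not firm.

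Several small subgroups carried markers of other cells. Subgroup 5 (142 cells, of which 92 came from WT GFP-) had 8 of 8 endothelial and 6 of 8 mural markers above 20 CPM and 2-fold over the rest. Subgroup 6 (117 cells, 101 of them marked as doublets) had 8 of 8 Schwann cell, 7 of 8 macrophage and 4 of 4 cycling markers. Subgroup 9 (39 cells, 37 marked) was led by Myh11 and other smooth muscle genes. Subgroup 7 (99 cells, 40 marked) had 8 of 8 fibro-adipogenic progenitor markers, such as Inmt and Gdf10. Subgroup 8 had 80 shallow cells with a median of 1591.5 UMIs, and 6 of 8 mural and 4 of 8 endothelial markers past the same limits. Subgroup 11 had 25 cells. These cells are 142, 117, 39, 99, 80 and 25 of the 2752, and tendon-only tenocytes leave out nearly all of subgroups 5, 6 and 9. They keep 73 of the 99 cells of subgroup 7, whose leading genes include Ifi205 and Hmcn2. Of subgroup 8 they keep 66 of the 80 cells, so this set is not free of cells from subgroups with markers of other types.

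**Figure D3:**
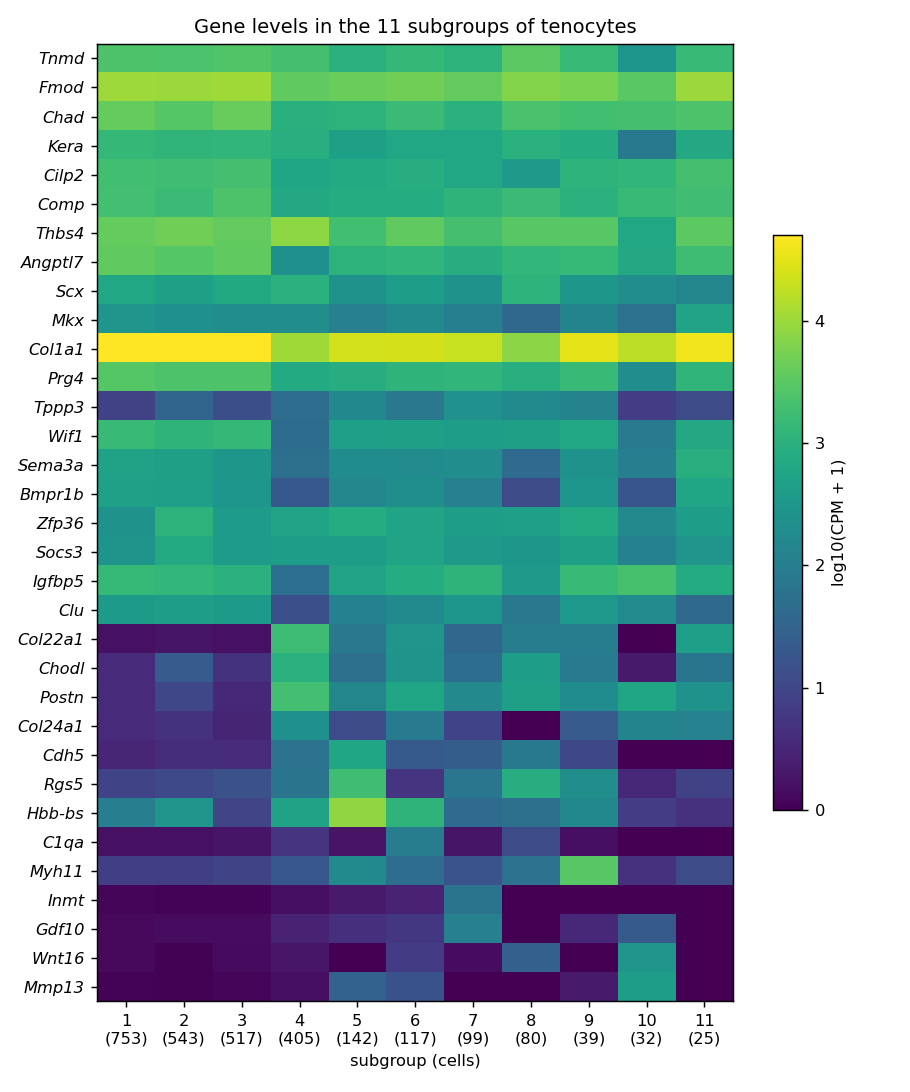
Level of 33 genes (rows, coloured by the base-10 logarithm of CPM plus 1) in the 11 subgroups of tenocytes (columns, with cell numbers in brackets). Subgroups 1 to 3 look alike, subgroup 4 has Col22a1, Chodl, Postn and Col24a1 at high level with little Clu and Igfbp5, and subgroups 5, 6, 7, 8 and 9 carry genes of other cell types.

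The clearest subgroup was subgroup 4, with 405 cells led by Col22a1, Kcnmb2, Col26a1, Sh3gl2, Gria4, Slc5a3 and Chodl. It made up 14.7% (12.1 to 17.6) and 17.2% (15.3 to 19.2) of GFP+ tenocytes, WT first, and 4.03% and 9.52% of GFP- tenocytes. The difference between genotypes was 2.50 points in GFP+ (-0.91 to 5.69) and holds 0, while GFP+ exceeded GFP- by 7.69 points within Sod1KO (4.16 to 10.8). Among tendon-only tenocytes, 77 cells of WT GFP+, 198 of Sod1KO GFP+ and 33 of Sod1KO GFP- belonged to it. They were set beside subgroups 1 to 3 of the same library, a comparison added after the data had been seen, and since clusters were compared all values are descriptions.

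Col22a1 was almost absent from subgroups 1 to 3 in the 3 libraries compared. Over all tenocytes of the 4 libraries it was at 1677 CPM in subgroup 4 and 32.1 CPM in all other subgroups together. Its level was 1623 CPM in subgroup 4 and 0.44 CPM in subgroups 1 to 3 of WT GFP+, 1497 and 1.13 CPM in Sod1KO GFP+, and 1181 and 0.14 CPM in Sod1KO GFP-. In subgroups 1 to 3 this was 6, 25 and 1 UMIs in all. After thinning, 73.1% of all subgroup 4 tenocytes had a Col22a1 UMI, against 0.27%, 0% and 0% in subgroups 1, 2 and 3. Postn, the matricellular protein periostin, was at 2064 against 4.68 CPM in WT GFP+, 1830 against 4.74 in Sod1KO GFP+ and 1065 against 6.33 in Sod1KO GFP-. Chodl (chondrolectin), Col24a1 (a fibril-forming collagen), the secreted matrix protein Reln, Sparcl1 and the laminin chain Lamb1 were also higher, each with a log2 ratio of at least 5.38 in all 3 libraries. In all, 731 of 9111 genes compared were at least 2-fold higher in subgroup 4 in all 3 libraries and 386 at least 2-fold lower.

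The classical tendon genes divided in this subgroup. Tnmd was close to level, with log2 ratios of -0.07 in WT GFP+, -0.14 in Sod1KO GFP+ and -0.44 in Sod1KO GFP-. Mkx was likewise close, at -0.08, -0.27 and 0.10. Scx was higher in the GFP+ libraries, at 0.72 and 0.92, but at 0.11 (-0.02 to 0.23) in Sod1KO GFP-. Thbs4, whose promoter held 2 E-boxes in the window shown, was higher in all 3, at 0.83, 1.09 and 1.14. Fmod and Chad were lower, Fmod at -1.73, -1.41 and -1.04 and Chad at -2.03, -1.84 and -2.61, and each of their promoters held 1 E-box. Comp was at -1.36, -1.37 and -2.14. Angptl7, given below, was lower too, and its promoter held 3 E-boxes, while that of Tnmd held 0. A link between E-box number and level was not tested.

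Collagen genes differed in direction. Col1a1 was at 10987 CPM in subgroup 4 against 62423 in subgroups 1 to 3 of WT GFP+, with log2 ratios of -2.51, -2.42 and -2.48 in the 3 libraries. Col3a1, which encodes the collagen of thin fibrils, was higher, at 0.82, 1.18 and 1.04. Col12a1 was level, at 0.11, 0.02 and 0.17. Prg4 was lower, at -1.73, -1.94 and -1.47, as was Angptl7, at -3.91, -3.75 and -2.85. Wif1 (-6.47, -4.74 and -4.82), Clu (-5.80, -5.57 and -4.49) and Igfbp5, an IGF-binding protein (-6.32, -4.86 and -4.23), were lower still. Among growth factors, Tgfb2 was higher (1.25, 1.71 and 1.92) and Bmp4 lower (-2.58, -1.16 and -1.74). In WT GFP- the subgroup had 5 tenocytes and no comparison was made.

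**Figure D4:**
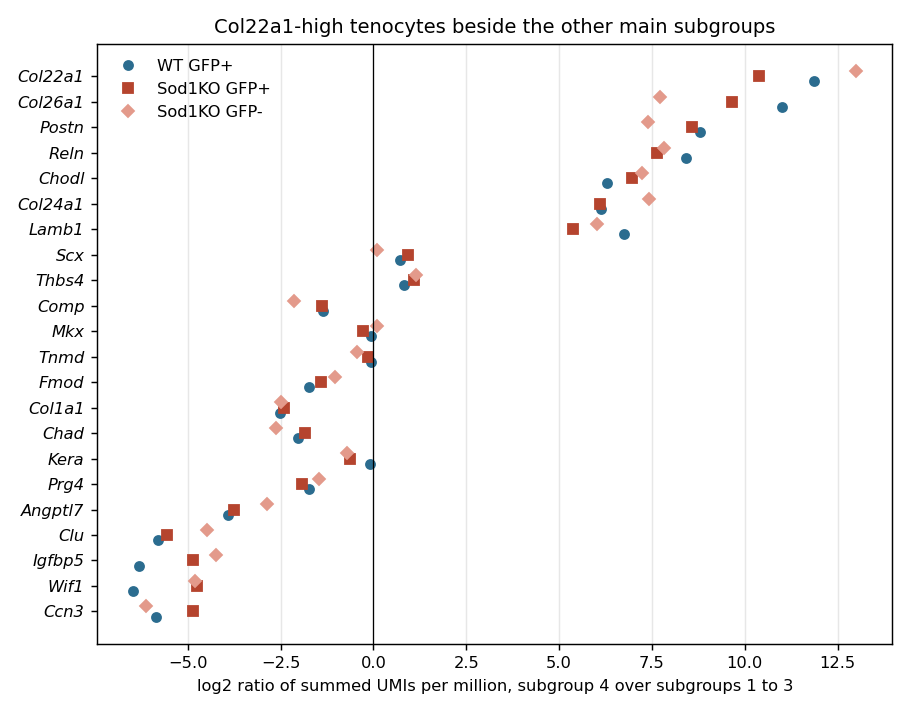
Log2 ratio of summed CPM of subgroup 4 over subgroups 1 to 3 (horizontal axis) for 22 genes in tendon-only tenocytes, with 1 point per library. Col22a1 lies above 10 in all 3 libraries, Tnmd and Mkx lie near 0, and Angptl7, Clu, Igfbp5, Wif1 and Ccn3 lie below -2.5 in all 3 libraries.

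Subgroup 10 was small, with 32 tenocytes, 6 in WT GFP+ and 26 in Sod1KO GFP+, and 0 of 124 and 0 of 462 in the GFP- libraries. It was led by Ostn, Wnt16, Dlx5, Bglap (osteocalcin), Bglap2 and Mmp13 (collagenase 3), genes known from bone-forming cells. Runx2, the transcription factor of bone formation that was not among the leading genes, was at 514 CPM in it, against 13.5 to 17.0 CPM in subgroups 1 to 3. Tnmd was at 288 CPM there, against 2339 to 2694 CPM in subgroups 1 to 3. Its share of tenocytes in the GFP+ libraries, 0.89% and 1.74%, differed by 0.85 points (-0.33 to 1.78). Of its 32 cells, 29 were tendon-only tenocytes.

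The make-up of tenocytes by subgroup differed between the genotype labels in the GFP+ sorts. Subgroup 2, with the immediate early genes, was 32.7% of tenocytes in WT GFP+ (29.2 to 36.4) and 16.5% in Sod1KO GFP+ (14.7 to 18.5), a difference of -16.1 points (-20.2 to -12.2). It was 15.6% in Sod1KO GFP-. Subgroup 1 was 5.85 points higher in Sod1KO GFP+ (1.80 to 9.71) and subgroup 3 was 6.48 points higher (3.01 to 9.74). The borders of these 3 subgroups moved with the clustering settings, as given above. In WT GFP- subgroups 1 to 4 together had 14 tenocytes, so no genotype comparison of make-up is given for the GFP- sorts.

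Expression was then compared between genotypes within tenocytes, to ask which genes differed in the pool labelled Sod1KO. A gene was counted when the library labelled Sod1KO and the WT library differed at least 2-fold, beyond counting error, among genes with 50 or more UMIs in both together. In the GFP+ sorts, 358 of 14292 genes (2.5%) were higher and 92 (0.644%) lower in all tenocytes, and 293 of 13132 (2.23%) were higher and 64 (0.487%) lower in tendon-only tenocytes. In the GFP- sorts, 802 of 11106 (7.22%) were higher and 961 (8.65%) lower in all tenocytes, where the WT library had the endothelial and erythroid markers described above and their part was not tested. With tendon-only tenocytes it was 338 (3.54%) and 254 (2.66%) of 9551. Most genes named below are therefore given from tendon-only tenocytes of the GFP+ sorts.

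In the GFP+ sorts, tendon matrix genes differed little between genotype labels. Of 102 genes on 6 lists (transcription factors of tenocytes, fibril-forming collagens, other collagens, collagen processing, small leucine-rich proteoglycans and matricellular proteins), 100 could be compared in the GFP+ sorts, and 0 were past 2-fold in either direction, beside 2.72% of all genes compared. A count of 0 in 100 is near that share and says nothing particular to these lists. The number of all genes past 2-fold also depended on the UMI limit, as given below for all tenocytes. The log2 ratios of these 100 genes lay between -0.84 and 0.75. In the GFP- sorts, where the WT value rests on 15 cells, 4 of 94 were higher (Col14a1, Ebf2, Lum and Runx2) and 5 lower (Aspn, Eln, Klf4, Six2 and Sox9), beside 3.54% and 2.66% of all genes. With all tenocytes of the GFP- sorts, 11 of 98 were higher, Scx and Mkx among them, and 8 lower, beside 7.22% and 8.65%, and the part of the markers of other cells in WT GFP- was not tested. In the GFP+ sorts the medians were -0.01 for the transcription factors, 0.04 for the fibril-forming collagens, 0.03 for collagen processing and -0.14 for the leucine-rich proteoglycans, beside 0.04 for all genes. Scx had a ratio of 0.27 (0.24 to 0.31) and Mkx one of -0.02 (-0.08 to 0.04). Col1a1 was at -0.20 and Col1a2 at -0.14. The largest of the 8 genes of the rule was Angptl7, at -0.56 (-0.58 to -0.55), and Prelp, a leucine-rich proteoglycan of cartilage and tendon, was at -0.54.

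Few genes of the sheath and signalling lists were past 2-fold in tendon-only tenocytes of the GFP+ sorts. Over all genes compared, 2.23% were higher and 0.487% lower, so a single gene on a list of this size says nothing particular to the list. Has1, a hyaluronan synthase, was at 44.0 CPM in WT GFP+ and 12.1 in Sod1KO GFP+, a log2 ratio of -1.86 (-2.05 to -1.68), and was the 1 of 10 sheath genes past 2-fold. In other cells of these libraries Has1 went from -0.29 in Pi16 fibroblasts to 1.69 in perineurial cells. Within tenocytes Has1 was at 47.0 CPM in subgroup 2 and at 4.84, 2.73 and 5.88 CPM in subgroups 1, 3 and 4, and with the same mix of subgroups in both libraries its ratio in all tenocytes was -1.38, against -1.71 without. Of 12 TGF-beta and BMP ligands, Gdf15 was higher (54 against 10 UMIs, but with a ratio of -0.92 in all tenocytes), and of 13 Wnt genes Sfrp5 was lower (32 against 63 UMIs, and -0.45 in all tenocytes). Ccl11 was the 1 of 23 neurotrophic and angiogenic genes past 2-fold, at 1.07, and Hapln1 the 1 of 9 enthesis and cartilage genes, at -1.11. Of 22 proteases and inhibitors, Mmp13 was higher, at 10.4 against 2.51 CPM and a ratio of 2.05 (1.58 to 2.56), but only 1.20% and 0.359% of cells carried it, and subgroup 10 held 352 of its UMIs while no other subgroup held more than 73. None of 11 TGF-beta and BMP receptors, 14 FGF pathway genes, 13 mechanosensing genes or 15 genes of the unfolded protein response was past 2-fold in tendon-only tenocytes. Fgf9 was at -0.96 in these and at -1.06, past 2-fold, in all tenocytes.

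Metallothioneins were lower in the library labelled Sod1KO GFP+. Mt1, which binds zinc and copper, was at 2566, 1311, 1465 and 1210 CPM, and Mt2 at 988, 468, 698 and 437 CPM. Mt2, with a GFP+ ratio of -1.08 (-1.11 to -1.04), was the 1 of 25 antioxidant genes past 2-fold (0.487% of all genes were lower), and Mt1 was at -0.97. Both were lower in the same direction in Pi16 fibroblasts (-0.64 for Mt1) and endothelial cells (-0.46). Within the tenocytes, subgroups 1 to 3 had ratios of -1.32 for Mt1 and -1.29 for Mt2, while subgroup 4 had -0.11 (-0.14 to -0.07) and -0.18 (-0.25 to -0.12). With the same mix of subgroups in both libraries, Mt2 was at -0.84 in all tenocytes, against -1.04 without, and so was no longer past 2-fold. Sod3, the extracellular superoxide dismutase, was at -0.61 (-0.69 to -0.53), Sod2 at -0.18 and Ccs, the copper chaperone of Sod1, at 0.23. The list's median was 0.01.

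Glucocorticoid and clock genes leaned to 1 side in the GFP+ sorts. In all tenocytes 12 of 13 had ratios below 0 in GFP+, with a median of -0.32. In GFP- it was 5 of 12, with 7 above 0 and a median of 0.16, so the lean was not seen there. All 13 genes compared had ratios below 0 in tendon-only tenocytes of the GFP+ sorts, with a median of -0.35 beside 0.04 for all genes, and 0 of 13 were past 2-fold. Tsc22d3 (GILZ), a glucocorticoid target, was at 165, 108, 146 and 92.5 CPM. Its GFP+ ratio was -0.61 (-0.68 to -0.53), with -0.51 in endothelial cells and -1.27 in perineurial cells. Fkbp5 was at -0.60 and Dbp, a clock output, at -0.35. In subgroup 4 Dbp went the other way, at 0.95 (0.64 to 1.26), against -0.38 in subgroups 1 to 3. Immediate early and heat shock genes had a median of -0.09 and 0 of 18 past 2-fold.

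Cell cycle genes were higher in tendon-only tenocytes of the library labelled Sod1KO GFP+, but from few cells. Of 8 genes compared, 6 were past 2-fold and higher, beside 2.23% of all genes, with Top2a at 238 against 13 UMIs and Mki67 at 163 against 23. Cells with 3 or more cycle genes were 2 of 557 in WT GFP+ (0.359%, 0.0435 to 1.29) and 13 of 1248 in Sod1KO GFP+ (1.04%, 0.556 to 1.77), so these intervals overlap. Among all tenocytes it was 9 of 673 and 26 of 1493, and 0 of 10 cycle genes were past 2-fold. All tenocytes include subgroup 6, where 101 of 117 cells were marked as doublets and the 4 cycling markers summed to 290 CPM. Its part in these counts was not tested.

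**Figure D5:**
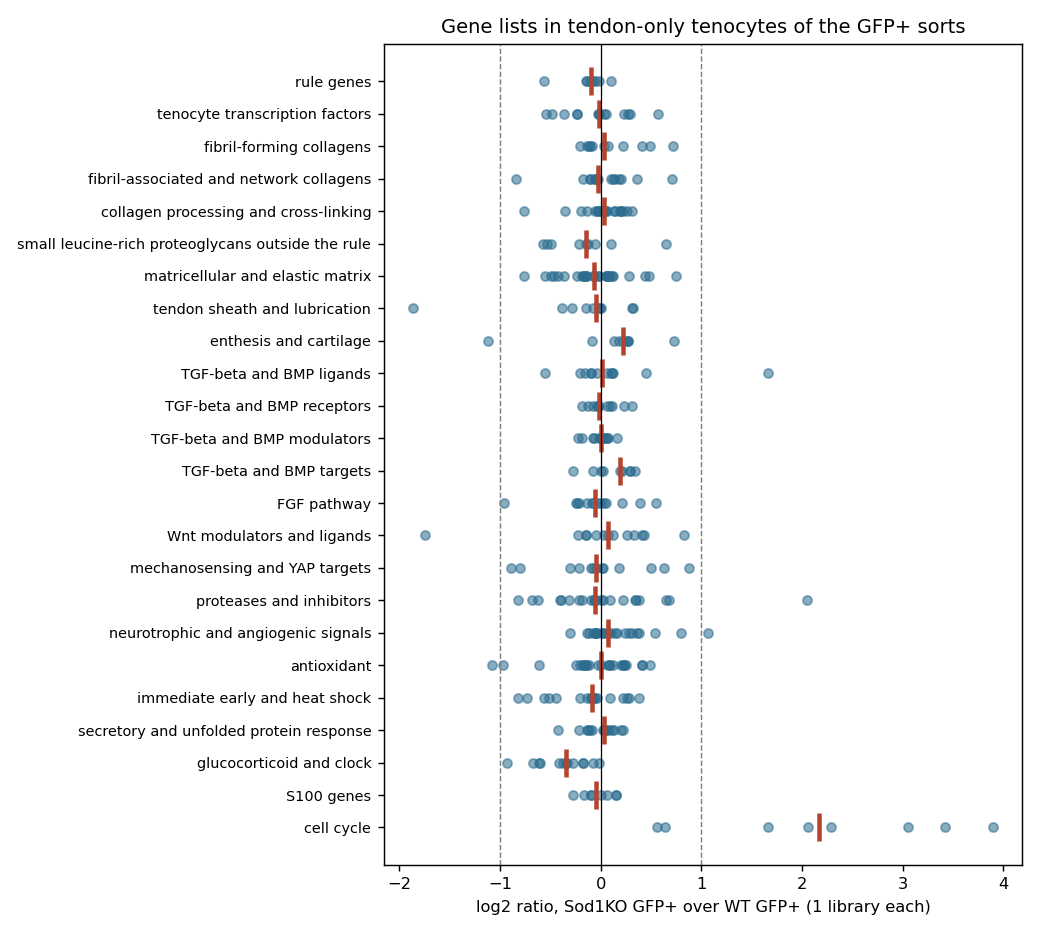
Log2 ratio of Sod1KO GFP+ over WT GFP+ (horizontal axis) for each gene of 24 lists in tendon-only tenocytes (blue points), with the median of each list as a red bar and dashed lines at 2-fold. Most lists centre near 0, the glucocorticoid and clock list has its median at -0.35, and the cell cycle list has its median at 2.17.

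Genes that differed in the same direction in both sorts were few. In all tenocytes 39 of 11068 (0.352%) were higher and 15 (0.136%) lower in both, and in tendon-only tenocytes 11 of 9551 (0.115%) were higher and 7 (0.0733%) lower. The GFP- sorts are further fractions of the same pools and not replicates. Leading the higher genes was Ppm1n, a metal-dependent protein phosphatase, with 131, 911, 1 and 322 UMIs in the 4 libraries (7.82, 31.9, 2.18 and 38.5 CPM). Its GFP+ ratio was 2.03 (1.76 to 2.30), and it was also higher in Pi16 fibroblasts (4.44) and endothelial cells (0.94). Tex14, named for testis expression, was at 14.99, 50.3, 2.18 and 45.5 CPM, with 0.99 in endothelial cells. Pde4c, a cyclic AMP phosphodiesterase, was at 12.96, 43.6, 6.54 and 61.6 CPM, with 0.52 in endothelial cells. Pttg1 (securin), Rnaseh2a (a subunit of ribonuclease H2) and Cx3cr1, the receptor of fractalkine, had GFP+ ratios of 1.67, 1.36 and 1.34, with 0.86, 0.38 and 0.80 in endothelial cells. Each of these 6 genes was thus higher in Sod1KO GFP+ in endothelial cells as well, where the ratio was smaller. The GFP- side rests on few UMIs from the 15 cells of WT GFP-. Tex14, Pde4c, Pttg1, Rnaseh2a and Cx3cr1 had 1, 3, 5, 4 and 4 UMIs there, and the GFP- ratio of Pttg1 was 1.30 (0.06 to 2.94).

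Some of these genes are neighbours on the chromosome. Iqcn (chr8:70701321-70717650), Gm3336 (chr8:70718495-70722635) and Pde4c (chr8:70723835-70751186) follow each other on GRCm38.p6, with GFP+ ratios of 1.24, 1.69 and 1.75, and reads of overlapping or adjoining genes may be hard to tell apart. Mast1 (chr8:84911853-84946177) and Rnaseh2a (chr8:84956610-84969598) lie close together further along, with Mast1 at 1.46 in all tenocytes. In all tenocytes the rule also named 1700112J16Rik, Mmp25, Cfap61, Dlg2 and Gm5544, with GFP+ ratios between 1.43 and 1.85 and at most 3 UMIs each in WT GFP-. Mia, a small secreted cartilage protein, was at 7.64, 20.9, 0 and 17.5 CPM, and Slpi at 40.2, 96.2, 6.54 and 91.9 CPM. In tendon-only tenocytes of WT GFP-, Iqcn, Gm3336, Mia and Slpi had 1, 2, 0 and 3 UMIs. Slpi had GFP+ ratios of -1.71 and -1.79 in Pi16 and other Pdgfra fibroblasts, and Mia had too few UMIs there for a ratio.

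The 7 genes lower in both sorts in tendon-only tenocytes were C7, Ddit4, Cyp26a1, Kcnmb2, Gria4, Ly6c1 and Ifi205. C7, a complement component, was at 18.7, 6.66, 227 and 6.81 CPM, so that WT GFP- was far above the rest. Ddit4, an inhibitor of mTOR signalling induced by stress, was at 25.4, 9.95, 28.3 and 10.0 CPM, with a GFP+ ratio of -1.35 (-1.58 to -1.13) and -0.75 in endothelial cells. Cyp26a1 was at 90.3, 39.5, 91.6 and 40.6 CPM, a GFP+ ratio of -1.19 (-1.30 to -1.08). In these cells the WT libraries were about level with each other, as were those labelled Sod1KO, but the WT GFP- value is 42 UMIs from 15 cells. In all tenocytes the Cyp26a1 ratio was -1.18 in GFP+ and 0.07 in GFP-, so the GFP- difference was not seen there. Cyp26a1 had too few UMIs for a ratio in fibroblasts and perineurial cells. Kcnmb2 and Gria4, leading genes of subgroup 4, were at -1.33 and -1.03, and Ly6c1 and Ifi205 at -1.31 and -1.07. In all tenocytes Kcnmb2, Gria4 and Ly6c1 were short of 2-fold, at -0.67, -0.39 and -0.69. In all tenocytes the rule named Procr, Gda, Car4, Cxcl9, Rbp4, Plac9b and Tmem252 as well, and each of these 7 was highest in WT GFP-, at 27.1 to 107 CPM.

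The GFP+ and GFP- sorts were compared last, to describe which tenocytes entered the GFP+ gate. S100b itself, whose promoter drives the reporter, was low in tenocytes, at 7.58 and 8.41 CPM in GFP+ tendon-only tenocytes, with 0 of 458606 UMIs in WT GFP- and 4.42 CPM in Sod1KO GFP-. Endothelial cells of the GFP+ libraries were at 34.4 and 38.3 CPM, and Pi16 fibroblasts at 90.6 and 42.7 CPM. After thinning, S100b was detected in 2.0% and 1.8% of tendon-only tenocytes of the GFP+ libraries and in 3.4% and 4.3% of endothelial cells there. These endothelial cells had entered the same gate and had more S100b, so they give no background share. In endothelial cells of the GFP- libraries the share was 0.19% (WT) and 0.68% (Sod1KO), at a median depth of 9104 and 15154 UMIs. The level of the reporter RNA was not analysed here.

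Fewer genes separated the sorts in tendon-only tenocytes than in all tenocytes. The UMIs of WT GFP- also went from 1363143 in all tenocytes to 458606 in tendon-only ones, and the part of these lost counts was not tested. In all tenocytes, GFP+ was higher for 839 genes (6.89%) and lower for 1063 (8.73%) of 12173 in WT, and for 472 (3.37%) and 313 (2.24%) of 13994 in Sod1KO. With tendon-only tenocytes of WT it was 304 (2.77%) and 255 (2.32%) of 10994. In all tenocytes, 123 of 12154 genes (1.01%) were higher and 204 (1.68%) lower in GFP+ in both genotypes. The leading lower ones included Car4, Hbb-bs and Aqp7, genes of other cells. The 8 Schwann cell markers summed to 234, 316, 16.1 and 22.2 CPM, with Sox10, Foxd3 and Cdh19 at 0 in WT GFP- and Foxd3 and Cdh19 at 0 in Sod1KO GFP-. Their part in the result was not tested. With tendon-only tenocytes it was 25 of 10985 (0.228%) higher and 14 (0.127%) lower. Spp1, the secreted matrix protein osteopontin, led them, at 46.5, 64.9, 8.72 and 4.78 CPM. Bglap2 had 520, 639, 0 and 1 UMIs, and it was among the leading genes of subgroup 10, which had 0 cells in the GFP- libraries. Postn was at 316, 341, 72.0 and 120 CPM and Col26a1 at 22.3, 33.2, 2.18 and 8.97 CPM, and both belong to subgroup 4, whose share was larger in GFP+. Bdnf, the neurotrophin, was at 28.4, 27.5, 4.36 and 9.80 CPM, Slit2, an axon guidance ligand, at 18.2, 26.5, 2.18 and 8.01 CPM, and Coch and Dio2 were named by the same rule. Lower in GFP+ were Rgs5, Fabp4 and Fgd5, genes of pericytes and endothelium, with Ifi205, Hmcn2, Ankrd1, Zdhhc15 and Cpe, and their WT GFP- values rest on 5 to 35 UMIs in 15 cells.

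Within Sod1KO, with 1248 and 352 tendon-only tenocytes in the sorts, 234 of 12812 genes (1.83%) were higher and 90 (0.702%) lower in GFP+. Of the 100 genes on the 6 matrix and transcription factor lists, 5 were higher (Col22a1, Col28a1, Postn, Runx2 and Spp1) and 1 lower (Ccn3). Col22a1 had a log2 ratio of 1.20 (1.10 to 1.29), Runx2 one of 1.27 (1.01 to 1.54) and Spp1 one of 3.76 (3.31 to 4.25). Subgroup 10, in which Runx2 was higher than in subgroups 1 to 3, had 26 tenocytes in Sod1KO GFP+ and 0 in Sod1KO GFP-. Of its 32 tenocytes 29 were tendon-only, and its part in the Runx2 ratio was not tested. Scx was at 0.16, Tnmd at -0.10, Mkx at -0.19 and Col1a1 at 0.02. Of 8 enthesis and cartilage genes, Col9a2, Cnmd and Hapln1 were higher. Gpx3, a secreted glutathione peroxidase, was at 0.80 and Clu at 0.71, both short of 2-fold.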

How the data were processed

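Single-cell RNA libraries of GFP+ and GFP- cells from pools labelled WT and Sod1KO were analysed, 1 library per group, named from the sample titles. The deposited values are UMI counts per gene and barcode, which the authors made with Cell Ranger. The submitters' processing notes name version 7.1.0, mm10 and Seurat 4.30, whereas the study's methods name a later Cell Ranger and both GRCm39 and GRCm38. The study's later steps (DecontX, DoubletFinder and Harmony) were not repeated on these counts, which may hold ambient RNA and doublets. The files list 32285 genes. The members and gene lists were chosen with earlier results of these data known.

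Cells were clustered with scanpy 1.11.5 on leidenalg 0.10.2 and igraph 0.11.9, intervals came from scipy 1.17.1, doublet scores from scikit-learn 1.9.0 and plots from matplotlib 3.10.9, under Python 3.11.15 with pandas 2.3.3 and numpy 2.4.6. UMIs of a gene were summed over the cells of a class in a library and given per 1000000 UMIs of that class (CPM). A log2 ratio has an exact conditional binomial interval, a share a Clopper-Pearson interval, a level a Poisson interval and a difference of shares a Newcombe interval, all at 95%. PCR duplicates had been collapsed by UMI, and the intervals cover counting error only. Counts of 0 were set to 3 UMIs as a floor for ratios. Scripts were tested on simulated data. Comparison classes needed 3 of 8 Pi16 fibroblast markers with 0.05% of UMIs, 2 Pdgfra UMIs, 4 of 8 perineurial markers with 0.05% of UMIs, or 4 of 8 endothelial markers. Subgroups are Leiden clusters at resolution 0.5 on 2000 variable genes and 20 principal components with 20 neighbours, without batch integration, after scaling to 10000 UMIs per cell. Doublets were scored by the share of simulated doublets among 50 neighbours and marked, not removed.

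Genes were named by rule: the 8 genes of the rule, up to 4 genes per list, the 10 (genotype) or 8 (sort) genes past 2-fold in the same direction in both fractions or genotypes with the largest smaller ratio, the 20 with the largest smallest ratio over similar cells, and the leading genes of subgroups. Some genes that fall under these rules are not reported here. Genes set beside these in subgroup 4 and 10, and in the genotype paragraphs on Angptl7 and Prelp, were chosen after their values were seen.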

Additional observations from a re-analysis of the deposited data

Results flagged for a closer look

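Opposite directions between genotype labels in the 2 sorts were seen in all tenocytes for 7 genes past 2-fold both ways, and the difference between sorts was not tested. In Sod1KO the globin genes were higher in GFP+ and lower in GFP-: Hba-a1 had log2 ratios of 3.68 and -3.98, Hba-a2 of 5.45 and -2.19, Hbb-bs of 3.94 and -3.06, and Hbb-bt of 5.60 and -3.87. Erythroid markers summed to 18.3 (WT) and 302 CPM (Sod1KO) in GFP+ and to 24366 and 2346 CPM in GFP-, and to 32.3 CPM or less in tendon-only tenocytes. The endothelial gene Emcn was at 1.08 in GFP+ and -3.15 in GFP-, while in tendon-only tenocytes it had 10 against 2 UMIs in GFP+ and 8 against 2 in GFP- (Sod1KO first), and both intervals hold 0. Ccl11, the chemokine eotaxin, was at 1.88 and -3.44, and in tendon-only tenocytes at 1.07 in GFP+ and at 1.83 (-0.70 to 7.16) in GFP-, where WT had 1 UMI. Has1 was at -1.71 and 1.06, and in tendon-only tenocytes at -1.86 in GFP+, with 3 UMIs of WT GFP- behind the GFP- value.

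Barcodes left out for few genes or many mitochondrial UMIs also held cells that met the rule. There were 19 of 731 (WT, 2.60%) and 28 of 976 (Sod1KO, 2.87%) in GFP+, and 6 of 387 (1.55%) and 11 of 1168 (0.942%) in GFP-, with medians of 13.1% to 17.0% mitochondrial UMIs. Each number is above the 3 that a count of 0 allows.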

How the results depend on the processing

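No paired analysis was possible because each group has 1 library. Of the values that summarise a comparison, 76 stayed within their limits under another setting, 40 moved and 1 changed sign. Of the values of single genes, 1001 stayed, 335 moved and 3 changed sign. The cause of a change was not tested.

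The share of tenocytes differed between genotypes in GFP+ by 8.15 points for tendon-only tenocytes, and in GFP- by 5.58 points for these and by -16.5 points among stromal cells. The WT sort difference was 8.36 points in thinned cells, 11.9 with more than 500 genes and less than 5% mitochondrial UMIs, 10.8 for tendon-only tenocytes and -5.19 among stromal cells. In Sod1KO it was 19.9, 13.4 and 21.9 under the last 3 of these.

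Genes higher in GFP+ Sod1KO (358) were 631 with at least 20 UMIs, 201 with at least 100, 572 after 5% ambient RNA had been taken off and 860 at 1.5-fold. Genes lower there (92) were 160, 59 and 286 under the same settings except the ambient one, and 143 with the same mix of subgroups in both libraries. In GFP-, the 802 higher genes were 1817 by mean CPM per cell, 1488 at 1.5-fold and 338 in tendon-only tenocytes, and the 961 lower genes 1682, 1697 and 254. In both sorts, the 39 higher genes were 20 with at least 100 UMIs, 107 at 1.5-fold and 11 in tendon-only tenocytes, and the 15 lower genes 49 without doublets, 23 by mean CPM per cell, 61 and 7. Genes higher in GFP+ in both genotypes (123) were 60 without doublets, 75 after ambient removal, 243 at 1.5-fold and 25 in tendon-only tenocytes, and lower genes (204) were 135 with at least 100 UMIs, and 112, 124, 330 and 14 under the other settings in that order. Resolution 0.3 gave 7 subgroups in place of 11. Counts by mean CPM per cell and by the same mix rest on the fold alone.

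In the WT sort comparison, Csmd1 was at -0.84 and Hbb-bs at 1.17 in tendon-only tenocytes, and Ankrd1 was at 1.10 by mean CPM per cell, each with the opposite sign to its value in all tenocytes. Median-of-ratios scaling moved ratios by at most 0.06, and the higher share of GFP+ genotype differences went from 79.6% to 74.8%. The same mix of subgroups was not run for the GFP- genotypes and the WT sorts, since WT GFP- had too few cells in most subgroups. The 15 tendon-only tenocytes of WT GFP- limit every value that uses them.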
